A study of Mus musculus with 11 samples.

Results

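Genes whose products bring proteins and metabolites into mitochondria, or translate the mitochondrial genome, were followed in mouse 3T3-L1 cells treated with insulin-sensitising thiazolidinediones. The set was taken by gene symbol: every probe set annotated to 1 gene whose symbol begins with Timm, Tomm, Mrpl, Mrps, Slc25a, Vdac, Tfb or Phb, or is Tfam, Hspd1, Hspe1 or Polg. It held 130 probe sets for 107 genes among the 12422 probe sets of the array that are not controls, or 107 of the 8251 genes that a probe set measured alone. The rule used names only and no measured value, but it was chosen with earlier results of these data known. A further 8 probe sets annotated to several genes, with at least 1 symbol of the rule, were left out. The question was whether mitochondrial genes outside the respiratory chain also responded to the drugs.

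RNA from 11 cell samples was hybridised to 1 one-colour oligonucleotide array each. The groups were 20 µM pioglitazone (2 arrays), 1 µM rosiglitazone (3 arrays), 20 µM troglitazone (3 arrays) and vehicle, 0.1% DMSO (3 arrays), all for 24 h. 3T3-L1 is a single mouse fibroblast line that can be turned into adipocytes in culture, so no animal or donor varies between the samples. The labels state neither the differentiation of the cells, nor the solvent in the drug wells, nor whether the replicates were separate cultures, and p-values measure only the spread between these arrays.

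Most mitochondrial proteins are encoded in the nucleus and imported. The Tomm translocase of the outer membrane and the Timm translocases of the inner membrane pass them inwards, the small Timm chaperones escort hydrophobic ones between the membranes, and the chaperonin of Hspd1 and Hspe1 folds them in the matrix. Vdac porins and most Slc25a carriers pass metabolites across the outer and inner membranes. The Mrpl and Mrps proteins of the large and small mitochondrial ribosomal subunits make the few proteins that mitochondrial DNA encodes. In adipocytes, thiazolidinediones act through the nuclear receptor PPARγ, and mitochondria burn fatty acids and supply citrate for fat synthesis.

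Array titles placed replicates 1 and 2 of every group in set 1 (8 arrays) and replicate 4 of rosiglitazone, troglitazone and vehicle in set 2 (3 arrays). The arrays had been scaled to a trimmed mean signal of 500.29 to 500.43 and correlated with each other at 0.82 to 0.945. Pioglitazone replicate 2 had a beta-actin 3′ to 5′ signal ratio of 4.86, against 1.79 to 2.27 on the other arrays of set 1 and 3.74 to 3.90 in set 2. Rosiglitazone replicate 2 stood furthest from the rest, with a median correlation of 0.833. Adipocyte markers were high in every sample: all 13 measured of 15 listed lay above the floor on all 11 arrays, and Adipoq, the adiponectin gene, read 28109 to 50833. Summed signals of the muscle (1333 to 3010), macrophage (1478 to 4014) and endothelial (149 to 768) lists overlapped between the groups. The endothelial cadherin Cdh5 lay above the floor on 0 arrays, Tek on 3, Kdr on 7 and Pecam1 on 9. Muscle Myod1, Myog and Des and macrophage Cd14 and Csf1r did so on all 11, and the rest of these lists on 1 (Itgam and Lyz2) to 10 (Ckm). Cd14 fell over the mean of the drugs (log2 -1.07, limma adjusted p 0.0459) and with troglitazone (-1.49, 0.0246). No other tested gene of the muscle, macrophage and endothelial lists was called over the mean. Summed signals of 4 measured of 5 listed brown adipocyte genes were 3211 to 3502 after pioglitazone and 3878 to 6713 after rosiglitazone. They were 4052 to 6549 after troglitazone, against 1914 to 3801 with vehicle. Cidea held most of this signal (1317.5 to 6551) and rose over the mean of the drugs (log2 0.94, limma adjusted p 0.00111). Ucp1, Dio2 and Ppargc1a read at most 265, 467 and 339. Their log2 fold changes of 0.43, -0.70 and 0.85 were not called (limma adjusted p 0.847, 0.693 and 0.629). The summed signal of 10 measured of 11 listed preadipocyte or fibroblast genes was 7494 to 7574 after pioglitazone, 7769 to 9509 after rosiglitazone and 5592 to 8567 after troglitazone, against 11717 to 12834 with vehicle. It was thus lower in all 3 drug groups and moved with every comparison to vehicle below. Of these genes Fn1, Col1a1 and Col3a1 were called lower over the mean of the drugs (log2 -1.02, -1.08 and -0.91, limma adjusted p 0.00204, 0.0158 and 0.0132). The others were not called, among them the bright Col1a2 (-0.07, adjusted p 0.934). The adipocyte sum was 145129 to 159696 after pioglitazone, 136334 to 175632 after rosiglitazone and 128172 to 149978 after troglitazone, and 136290 to 166202 with vehicle, and overlapped between the groups. Single markers moved both ways, and 6 of the 13 were called over the mean of the drugs. Plin2 and Cidec rose (log2 1.29 and 1.22, limma adjusted p 1.8e-05 and 1.23e-05), while Pparg, Thrsp, Fasn and Retn fell (-1.75, -1.50, -1.30 and -1.13, adjusted p 3.99e-05, 2.14e-05, 1.8e-05 and 0.000772). The part of these markers and of cell composition in the results was not tested, and in RNA from whole cultures fewer cells of a type and less RNA per cell cannot be told apart.

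Of the 130 probe sets, 129 passed the filter on dim signals (above a floor of 73.7 on at least 2 arrays) and were tested, and these covered all 107 genes. The 1 left out was a dim probe set of the porin Vdac2, which read 41.9 and 38.5 after pioglitazone, 39.3, 63.5 and 28.6 after rosiglitazone, 26.2, 32 and 19 after troglitazone and 53.1, 52.7 and 117 with vehicle. The members were bright as a group, with a median mean signal of 9.51 on the log2 scale against 7.65 for all tested probe sets, and 6.13% of their values lay at the floor, against 20.99% of all. Levels of different probe sets are not comparable on this array, so each gene is compared only with itself.

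Over the mean of the 3 drugs, 6 of the 129 member probe sets rose and 0 fell. The 6 were Slc25a20, Mrpl51, Slc25a39, Mrpl12, Timm23 and Mrps26. A call means an adjusted p under 0.05 in a limma model of log2 signal with terms for group and set, fitted to all 11739 tested probe sets. The 6 made up 4.65% of the members, and 1.28% of all tested probe sets rose in that contrast while 0.86% fell. At an unadjusted p under 0.05, 29 member probe sets were higher and 3 lower, which is 22.5% and 2.33% against 4.8% and 5.67% of all tested probe sets. In set 1 alone, or without limma's intensity trend, 0 members were called.

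Single drugs gave fewer calls. With pioglitazone 1 member rose, Mrpl51, which is 0.775% of the members against 0.63% of all tested probe sets, a share near the background. With rosiglitazone 3 rose (Slc25a20, Mrpl51 and Mrpl12), 2.33% against 0.784%. With troglitazone 2 rose (Slc25a20 and Slc25a39), 1.55% against 0.775%. No member fell with pioglitazone, rosiglitazone or troglitazone by limma's adjusted p, where 0.273%, 0.571% and 0.554% of all tested probe sets fell. At an unadjusted p under 0.05, 25 members (19.4%) were higher and 1 (0.775%) lower with pioglitazone, against 4.84% and 5.01% of all tested probe sets. The counts were 25 (19.4%) and 3 (2.33%) with rosiglitazone, against 5.16% and 5.35%, and 13 (10.1%) and 3 (2.33%) with troglitazone, against 4.02% and 4.3%. The rosiglitazone dose differed from that of the other 2 drugs, so counts are set side by side without ranking the compounds.

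Many more members leaned upward than passed the test. The median log2 fold change of the members was 0.29 with pioglitazone, 0.20 with rosiglitazone, 0.16 with troglitazone and 0.22 for the mean of the 3 drugs. The same medians over all tested probe sets were -0.08, 0, -0.03 and -0.03. For the mean of the drugs, 94 of 129 member probe sets lay above 0, against 5535 of all 11739. Among 3004 other probe sets within the quartiles of the members' mean signal (8.41 to 10.46 on the log2 scale) the median was -0.07. The part of brightness in the lean was not tested. The 108 members above the floor on every array had a median of 0.22, against -0.03 for all 5687 such probe sets.

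The upward lean appeared in each set taken alone. In set 1 the members' median against vehicle was 0.27 for pioglitazone, 0.16 for rosiglitazone and 0.17 for troglitazone. All tested probe sets had medians of -0.04, 0.02 and -0.01 there. In set 2, with 1 array a group and no test, the members' median was 0.33 for rosiglitazone and 0.10 for troglitazone. The median of all tested probe sets was 0 in set 2, where a probe set at the floor on both arrays counts as exactly 0. Over all arrays 20.99% of all tested values and 6.13% of the members' values lay at the floor. In set 2, 87 and 77 of 129 members lay above 0 for rosiglitazone and troglitazone, against 4456 and 4458 of 11739 probe sets. Within a set the drugs share their vehicle arrays, so the medians of 1 set are not independent of one another.

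Array scaling touched the size of the lean and not its side. With median centring the median of all tested probe sets for pioglitazone moved from -0.08 to 0.06, and the members stood 0.41 above it, against 0.37 as deposited and 0.30 after quantile normalisation. The share of all calls that were higher was 69.8% for pioglitazone and 59.8% for the mean of the drugs, but 50.6% and 51.8% after quantile normalisation and 87.2% and 71.4% after median centring. For troglitazone that share was 58.3%, and 71.1% after median centring.

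**Figure D1:**
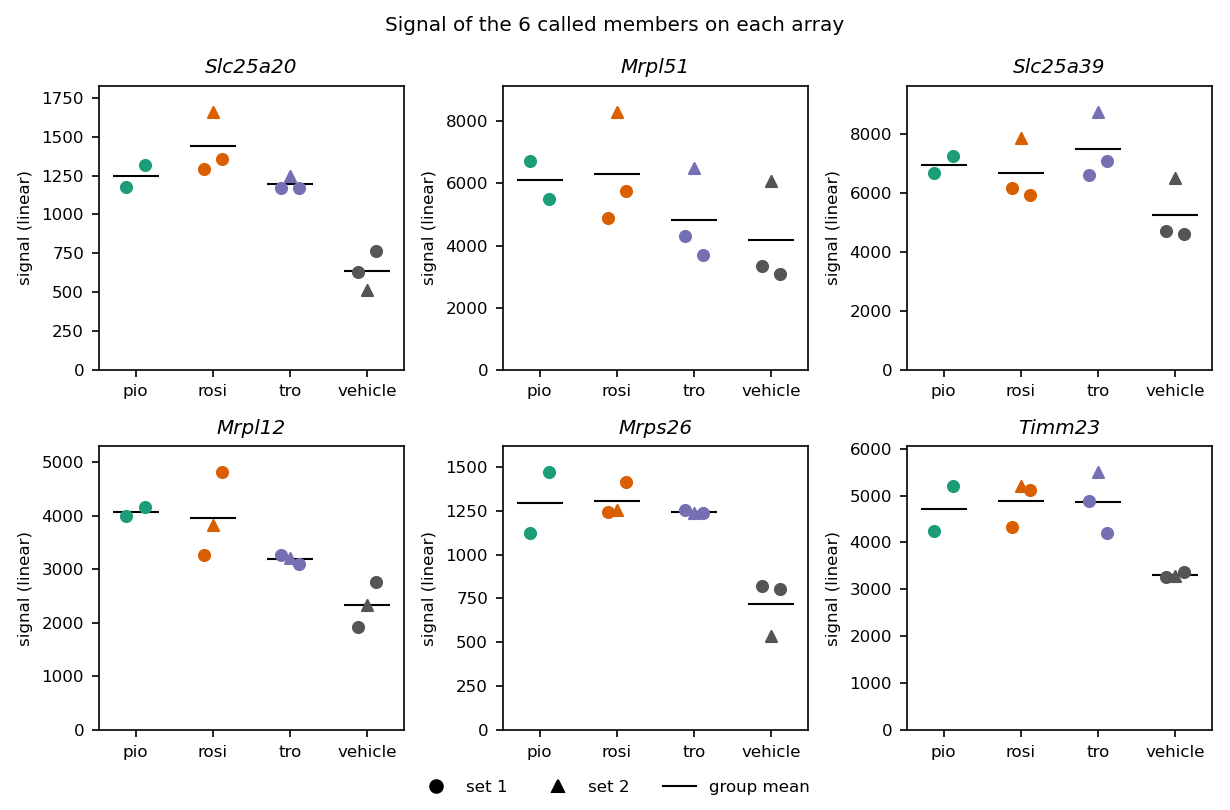
Signal (linear array units) of the 6 member probe sets that rose over the mean of the 3 drugs, 1 panel a gene, with pioglitazone (pio), rosiglitazone (rosi), troglitazone (tro) and vehicle from left to right. Circles are set 1 arrays, triangles set 2 arrays and lines group means. For Slc25a20, Mrpl12, Mrps26 and Timm23 all 8 drug arrays lay above all 3 vehicle arrays, and for Mrpl51 and Slc25a39 the set 2 vehicle array lay within the drug range.

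Among the translocases, the inner membrane Timm genes leaned most evenly upward. For the mean of the drugs 12 of 13 Timm probe sets lay above 0, with a median of 0.43, and medians of 0.55 with pioglitazone, 0.37 with rosiglitazone and 0.29 with troglitazone. Timm23, a core channel subunit of the presequence translocase, was the 1 that rose. It read 4238 and 5205 after pioglitazone, 4325, 5123 and 5209 after rosiglitazone, 4890.5, 4194 and 5499.9 after troglitazone, and 3254, 3372 and 3285 with vehicle. Every drug array was above every vehicle array, and the vehicle arrays lay close together. The log2 fold change over the mean of the drugs was 0.55 ± 0.12 (SE), a 1.47-fold rise with a limma adjusted p of 0.0206. Pioglitazone gave 0.55, rosiglitazone 0.56 and troglitazone 0.55 on the log2 scale, each short of the threshold alone (adjusted p 0.172, 0.0751 and 0.0876). The call ended without rosiglitazone replicate 4 (adjusted p 0.062), troglitazone replicate 4 (0.0781) or vehicle replicate 1, 2 or 4 (0.111, 0.0861 and 0.175), with log2 fold changes of 0.49 to 0.60 over all 11 single omissions. It also ended with quantile normalisation (0.0877), with no set term (0.197) and without rosiglitazone 2 and pioglitazone 2 together (0.0687).

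The promoter of Timm23 is shown because it belongs to the translocase gene that rose and held 3 motif matches. It spans 250 bases before to 50 after the start of the RefSeq gene model on GRCm38.p6, chr14:32201842-32202141, minus strand, and capitals mark the motifs TGCGCA (the core of NRF1 sites) and CCGGAAG (an ETS site such as GABP binds) on either strand.
Timm23 promoter: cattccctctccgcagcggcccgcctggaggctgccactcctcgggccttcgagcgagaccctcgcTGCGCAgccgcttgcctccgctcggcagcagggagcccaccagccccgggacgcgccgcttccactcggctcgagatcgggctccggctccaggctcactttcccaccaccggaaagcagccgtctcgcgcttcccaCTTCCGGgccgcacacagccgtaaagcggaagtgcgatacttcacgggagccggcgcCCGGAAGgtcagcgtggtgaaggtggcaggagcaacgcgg

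Partners of Timm23 were not called. Timm17a, another core subunit of the channel, read 1567 and 1842 after pioglitazone, 1722, 1129.6 and 2557 after rosiglitazone, 1308, 1438 and 1838 after troglitazone and 859.7, 1364 and 1351 with vehicle. Its drug and vehicle ranges overlapped through 2 drug arrays, and the log2 fold change of 0.55 ± 0.19 had an adjusted p of 0.23. Timm44, which tethers the matrix Hsp70 to the channel, read 934 and 1063 after pioglitazone, 697, 758 and 923 after rosiglitazone, 1064, 1153 and 1168 after troglitazone and 773, 782 and 1302 with vehicle. Its groups overlapped throughout, with a log2 fold change of 0.10 ± 0.18 (adjusted p 0.91). Timm17b, also a member, stood at a log2 difference of 0.08 for the mean of the drugs within set 1. Within set 2 it stood at -0.25 for rosiglitazone and -0.27 for troglitazone.

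Of the small intermembrane chaperones none passed the test. Timm13 read 5918 and 4822 after pioglitazone, 3592, 3812 and 5162 after rosiglitazone, 3812, 3323 and 4547 after troglitazone and 3596, 3672 and 4873 with vehicle. The pioglitazone arrays stood above the other arrays of their set, with a log2 fold change of 0.55 ± 0.15 (adjusted p 0.137), while rosiglitazone gave 0.05 and troglitazone -0.05. Timm8a1 read 452 and 474 after pioglitazone, 574, 445 and 602 after rosiglitazone, 295, 425 and 409 after troglitazone and 251, 318 and 332 with vehicle. Its mean log2 fold change was 0.63 ± 0.29 (adjusted p 0.468), and 1 troglitazone array lay inside the vehicle range. Timm9 read 156 and 257 after pioglitazone, 224, 40 and 288 after rosiglitazone, 303, 264 and 272 after troglitazone and 178, 129 and 309.6 with vehicle. Timm10, its partner in 1 chaperone complex, read 1251 and 472 after pioglitazone, 624, 809 and 729.8 after rosiglitazone, 775, 1164 and 556 after troglitazone and 760.5, 687 and 477 with vehicle. Both spread widely within groups, with log2 fold changes of 0.21 ± 0.49 and 0.22 ± 0.29 (adjusted p 0.928 and 0.875).

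None of the 6 Tomm probe sets passed limma's adjusted p, 1 was higher at an unadjusted p under 0.05, and their median over the mean of the drugs was 0.15. Tomm40, the outer membrane channel, read 1039.5 and 1258 after pioglitazone, 956, 1029 and 766 after rosiglitazone, 670.0, 824 and 949.9 after troglitazone and 722, 696 and 504 with vehicle. Both pioglitazone arrays and all 3 rosiglitazone arrays lay above all vehicle arrays, 1 troglitazone array did not, and the log2 fold change of 0.56 ± 0.21 had an adjusted p of 0.286. Tomm20, a presequence receptor, read 624 and 359.8 after pioglitazone, 617, 809.9 and 547 after rosiglitazone, 470.5, 970.3 and 316 after troglitazone and 664, 861 and 390.3 with vehicle. Its value of -0.25 ± 0.29 (adjusted p 0.866) lay within the spread of the arrays.

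Tomm70a, a receptor for carrier precursors, had a pair of probe sets. The brighter read 634 and 1164 after pioglitazone, 842, 804 and 1064 after rosiglitazone, 772, 982 and 945 after troglitazone and 779, 602 and 697 with vehicle, and the dimmer read 174 and 288 after pioglitazone, 369, 210.4 and 405 after rosiglitazone, 287, 297 and 348 after troglitazone and 222, 320.5 and 313 with vehicle. They gave 0.38 ± 0.22 and 0.03 ± 0.39 (adjusted p 0.619 and 0.99), and the pioglitazone value of the brighter turned to -0.06 without pioglitazone replicate 2. The lowest Tomm value, -0.29 ± 0.24 (adjusted p 0.767), belonged to Tomm34, a cytosolic cochaperone of precursor proteins.

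The matrix chaperonin lay just short of the threshold. Hspd1, the Hsp60 subunit, read 8457 and 11770.4 after pioglitazone, 10777, 8942 and 11796 after rosiglitazone, 8882, 10937 and 9943 after troglitazone and 6669, 8277 and 6637 with vehicle. Hspe1, its Hsp10 lid, read 3867 and 7627 after pioglitazone, 5095, 4589 and 7668 after rosiglitazone, 4819.6, 4992 and 5562 after troglitazone and 3702, 3562 and 3323 with vehicle. All 8 drug arrays lay above all 3 vehicle arrays for both genes, with mean log2 fold changes of 0.50 ± 0.13 and 0.64 ± 0.18 (adjusted p 0.0772 and 0.097). A dimmer Hspd1 probe set read 1291 and 921 after pioglitazone, 822, 376 and 328 after rosiglitazone, 979, 484 and 523 after troglitazone and 1106, 490.4 and 462 with vehicle. It did not share the separation and gave 0.05 ± 0.32 (adjusted p 0.98).

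Phb2, a prohibitin scaffold of the inner membrane, read 2604 and 3598 after pioglitazone, 2425, 1382 and 5068 after rosiglitazone, 2520.2, 2845 and 3880.2 after troglitazone and 2029.8, 2209.5 and 3478 with vehicle. Rosiglitazone held both its lowest and its highest array, and the log2 fold change was 0.30 ± 0.19 (adjusted p 0.653).

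**Figure D2:**
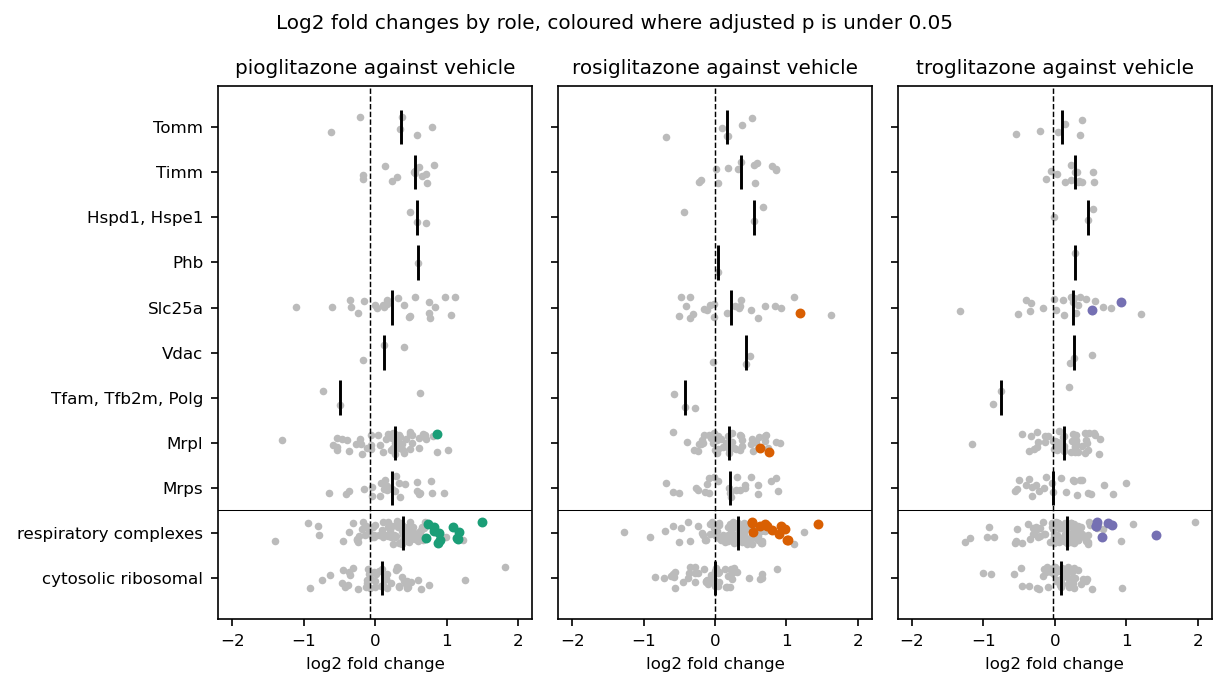
Log2 fold change against vehicle of every tested member probe set by role, in 1 panel a drug, with the respiratory complexes and cytosolic ribosomal proteins below the line. Points are probe sets, coloured where the limma adjusted p is under 0.05, bars are medians, and the dashed line is the median of all 11739 tested probe sets. Most role medians lie right of that line, and the coloured points are sparse among members and denser among the respiratory complexes.

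The Slc25a carriers held the member with the smallest adjusted p. Slc25a20 encodes the carnitine-acylcarnitine translocase, which carries fatty acids as carnitine esters into the matrix for oxidation. It read 1174 and 1317 after pioglitazone, 1294, 1359.6 and 1661 after rosiglitazone, 1172, 1168 and 1246 after troglitazone, and 632, 764 and 514 with vehicle. The lowest drug array was well above the highest vehicle array. It rose 2.04-fold over the mean of the drugs (log2 1.03 ± 0.18, adjusted p 0.00483), 2.27-fold with rosiglitazone (adjusted p 0.0102) and 1.9-fold with troglitazone (adjusted p 0.0481). Pioglitazone gave a log2 fold change of 0.98 ± 0.25, close to that of troglitazone, with an adjusted p of 0.0939.

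Within set 1 the Slc25a20 difference from vehicle was 0.84 on the log2 scale for the mean of the drugs, and within set 2 it was 1.69 for rosiglitazone and 1.28 for troglitazone. The call over the mean ended in 1 of 11 single omissions, without vehicle replicate 4 (adjusted p 0.0613). The rosiglitazone call ended without rosiglitazone replicate 4 (0.106), vehicle replicate 1 (0.0506) or vehicle replicate 4 (0.093). The troglitazone call ended without any 1 of the 11 arrays, at adjusted p of 0.0541 to 0.293, with log2 fold changes of 0.71 to 1.08. With only the groups compared in the model the rosiglitazone call ended (0.187), and it also ended without rosiglitazone 2 and pioglitazone 2 together (0.0846). Of 13 other alternatives the troglitazone call held in 2, quantile normalisation and median centring.

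The promoter of Slc25a20 is shown because the gene had the largest called change, and because it matched a loose form of the direct repeat that PPARγ binds with RXR. That search took 2 AGGTCA copies spaced by 1 base (DR1), on both strands, with up to 2 mismatches. The window is chr9:108661886-108662185 on the plus strand of GRCm38.p6 (RefSeq), and capitals mark a CCGGAAG match and, nearer the 3′ end, the DR1 match, which had 2 mismatches.
Slc25a20 promoter: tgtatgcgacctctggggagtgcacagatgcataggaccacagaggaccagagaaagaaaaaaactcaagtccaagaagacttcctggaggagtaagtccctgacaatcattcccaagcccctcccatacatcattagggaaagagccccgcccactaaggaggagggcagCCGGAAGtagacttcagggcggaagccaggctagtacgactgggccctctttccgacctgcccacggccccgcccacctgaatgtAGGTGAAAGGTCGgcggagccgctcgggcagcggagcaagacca

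Slc25a39, needed for glutathione import into mitochondria, was the other carrier that rose. It read 6653 and 7225 after pioglitazone, 6173, 5927 and 7862 after rosiglitazone, 6596, 7066 and 8739 after troglitazone and 4696, 4596 and 6481 with vehicle. The set 2 vehicle array lay above 2 rosiglitazone arrays of set 1, so the raw groups overlapped, while within each set the drug arrays were higher. The rise was 1.39-fold over the mean of the drugs (log2 0.47 ± 0.10, adjusted p 0.0174) and 1.43-fold with troglitazone (adjusted p 0.0424), while pioglitazone gave log2 0.55 (0.0756) and rosiglitazone 0.35 (0.24). The call over the mean ended without troglitazone replicate 4 (adjusted p 0.0511) or vehicle replicate 1, 2 or 4 (0.108, 0.127 and 0.0689). The troglitazone call ended in 8 of 11 single omissions, without rosiglitazone replicate 1 or 4 or any troglitazone or vehicle array, at adjusted p of up to 0.208. With quantile normalisation and with no set term both calls ended, at 0.0912 and 0.536 over the mean and 0.124 and 0.702 with troglitazone, and the troglitazone call also ended with a replicate block (0.0503) and with only the groups compared (0.121).

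The remaining 22 Slc25a probe sets did not pass, and the 24 together had a median of 0.24 over the mean of the drugs, with 17 above 0. Slc25a1, the citrate carrier that feeds fat synthesis, had a pair of bright probe sets, of which 1 read 8548 and 6878 after pioglitazone, 6800.2, 6571 and 9846 after rosiglitazone, 6714, 7173 and 7941 after troglitazone and 5405, 5547 and 7234 with vehicle. The other read 11220.1 and 8654 after pioglitazone, 9767, 10479 and 11445 after rosiglitazone, 10557, 11688 and 12655 after troglitazone and 8276, 9805 and 10274 with vehicle. Both overlapped vehicle, at log2 fold changes of 0.36 ± 0.11 and 0.20 ± 0.11 (adjusted p 0.13 and 0.582). Slc25a51, which carries NAD+ into the matrix, read 926 and 801 after pioglitazone, 901, 756 and 848 after rosiglitazone, 740.3, 745 and 602 after troglitazone and 558, 429.7 and 426 with vehicle. All 8 drug arrays lay above vehicle there, with a log2 fold change of 0.74 ± 0.21 (adjusted p 0.1), and its second probe set gave 0.74 ± 0.34 (0.451).

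The adenine nucleotide translocases exchange ATP for ADP. Slc25a4 read 4513 and 5406 after pioglitazone, 4654, 4819 and 6736 after rosiglitazone, 4393, 4054 and 5967 after troglitazone and 4208, 3999 and 5026 with vehicle, overlapping groups with a log2 fold change of 0.23 ± 0.11 (adjusted p 0.464). Slc25a5 had 3 probe sets that did not give 1 answer, and its sequence is close to that of Slc25a4, so cross-hybridisation was possible. The dimmest read 312 and 204 after pioglitazone, 315, 530.5 and 392 after rosiglitazone, 234, 249 and 472 after troglitazone and 119.5, 111 and 168 with vehicle. There all drug arrays were above all vehicle arrays, and 1.32 ± 0.42 was the largest log2 fold change of any member, short of the threshold (adjusted p 0.162).

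The brightest Slc25a5 probe set read 2445 and 1892 after pioglitazone, 2574, 3544 and 2729 after rosiglitazone, 2562, 2598 and 2201 after troglitazone and 1952, 2388 and 1868 with vehicle. The last read 1203 and 763 after pioglitazone, 701, 347 and 468 after rosiglitazone, 478, 863 and 591 after troglitazone and 731, 933 and 348 with vehicle. Both overlapped vehicle, at 0.25 ± 0.14 and 0.04 ± 0.31 (adjusted p 0.601 and 0.98).

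Some carriers leaned the other way. Slc25a10, the dicarboxylate carrier, read 3629.6 and 3795 after pioglitazone, 3404, 3693 and 2307 after rosiglitazone, 3501, 3277 and 2545 after troglitazone and 4247, 4515 and 3119 with vehicle. Within each set every drug array was below every vehicle array, with a log2 fold change of -0.31 ± 0.11 and an adjusted p of 0.246. Slc25a3, the phosphate carrier, was measured by a dim probe set that read 184 and 97.7 after pioglitazone, 174, 146 and 354 after rosiglitazone, 156, 120.4 and 81.7 after troglitazone and 324, 303 and 249 with vehicle. One rosiglitazone array was the highest of all, and the log2 fold change of -0.97 ± 0.49 (adjusted p 0.516) was the lowest of any member. Slc25a11, the oxoglutarate carrier, read 1906 and 2204 after pioglitazone, 2388, 1648 and 2658 after rosiglitazone, 2302, 1686 and 2508 after troglitazone and 1253, 1933 and 2027 with vehicle. It leaned upward with overlap, at 0.36 ± 0.17 (adjusted p 0.482).

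The 3 porins did not pass in any comparison, and over the mean of the drugs 1 was higher at an unadjusted p under 0.05 in limma's fit. Vdac3 read 1072 and 1583 after pioglitazone, 1224, 1349.9 and 1535 after rosiglitazone, 1106, 1482 and 1839.7 after troglitazone and 1332, 939 and 825 with vehicle. Vdac1 read 200.0 and 141 after pioglitazone, 268, 228 and 213 after rosiglitazone, 208, 202 and 191 after troglitazone and 212, 236 and 93.1 with vehicle. The tested Vdac2 probe set read 412 and 629 after pioglitazone, 296, 539 and 540.2 after rosiglitazone, 558, 545 and 472 after troglitazone and 492, 581 and 322 with vehicle. All 3 overlapped vehicle, with log2 fold changes of 0.45 ± 0.21, 0.20 ± 0.45 and 0.10 ± 0.30 (adjusted p 0.464, 0.926 and 0.949).

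The mitochondrial ribosome was the largest group, with 51 Mrpl probe sets for 40 genes and 25 Mrps probe sets for 21 genes. Over the mean of the drugs, 2 Mrpl and 1 Mrps probe sets of the 76 rose and 0 fell, while 14 were higher and 1 lower at an unadjusted p under 0.05. Of all tested probe sets 1.28% rose and 0.86% fell, and 4.8% were higher and 5.67% lower at that unadjusted p. The medians over the 76 were 0.26 with pioglitazone, 0.21 with rosiglitazone, 0.12 with troglitazone and 0.16 for the mean, and single values ran from -0.61 to 0.83 in the mean. The large subunit had 38 of 51 values above 0 and the small subunit 16 of 25. With troglitazone the median of the small subunit was -0.02, on the other side of 0 after quantile normalisation (0.0005) and median centring (0.09).

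Mrpl51, a large subunit protein, read 6732 and 5502 after pioglitazone, 4888, 5742 and 8308 after rosiglitazone, 4300.1, 3689 and 6493 after troglitazone, and 3327, 3090.5 and 6088 with vehicle. Set 2 arrays were brighter than set 1 arrays in each group that had both, so the raw groups overlapped, while within each set every drug array was above vehicle. It rose 1.83-fold with pioglitazone (log2 0.87 ± 0.16, adjusted p 0.0143), 1.55-fold with rosiglitazone (0.035) and 1.5-fold over the mean (0.0136). With troglitazone the log2 fold change was 0.24 ± 0.14 (adjusted p 0.729).

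The call of Mrpl51 over the mean ended without vehicle replicate 1 (adjusted p 0.0989) or vehicle replicate 2 (0.137). The pioglitazone call ended without pioglitazone replicate 1 (0.139), vehicle replicate 1 (0.0862) or vehicle replicate 2 (0.107), and the rosiglitazone call ended in 9 of 11 single omissions, all but those of a pioglitazone array, at adjusted p of up to 0.181. All 3 calls ended with quantile normalisation (0.0764 over the mean, 0.101 with pioglitazone and 0.112 with rosiglitazone) and with no set term (0.665, 0.827 and 0.601). Both single-drug calls ended with only the groups compared (0.408 with pioglitazone and 0.194 with rosiglitazone), and the rosiglitazone call also ended with median centring (0.0518), the floor at the 50th percentile (0.0763), no filter (0.0695) or without rosiglitazone 2 and pioglitazone 2 together (0.135).

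Mrpl12, a large subunit protein that also binds the mitochondrial RNA polymerase, read 3992 and 4164 after pioglitazone, 3258, 4814 and 3817 after rosiglitazone, 3266, 3106 and 3208 after troglitazone and 1931, 2756 and 2327 with vehicle. All drug arrays were above all vehicle arrays. It rose 1.6-fold over the mean of the drugs (log2 0.68 ± 0.14, adjusted p 0.0199) and 1.69-fold with rosiglitazone (adjusted p 0.0414), while pioglitazone gave log2 0.81 (0.0756) and troglitazone 0.46 (0.37). The call over the mean ended without pioglitazone replicate 2 (0.0535), rosiglitazone replicate 4 (0.058), troglitazone replicate 4 (0.065), vehicle replicate 1 (0.223) or vehicle replicate 4 (0.111). The rosiglitazone call held in 1 of 11 omissions, that of rosiglitazone replicate 1 (0.0444), and reached 0.233 in the others. Both calls ended with quantile normalisation (0.081 over the mean and 0.0922 with rosiglitazone), with no set term (0.0949 and 0.216) and with the floor at the 50th percentile (0.0909 and 0.142), with no filter (0.0797 and 0.113) and without rosiglitazone 2 and pioglitazone 2 together (0.0794 and 0.228). The rosiglitazone call also ended with median centring (0.0562), the beta-actin covariate (0.0529) or only the groups compared (0.355).

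Mrps26, a small subunit protein, read 1121 and 1470.0 after pioglitazone, 1244, 1414 and 1255 after rosiglitazone, 1254, 1236 and 1234 after troglitazone and 822, 805 and 533 with vehicle. The drug arrays lay close together and all above vehicle, whose set 2 array was the lowest. It rose 1.77-fold over the mean (log2 0.83 ± 0.18, adjusted p 0.0206), and no single drug passed (0.2 with pioglitazone, 0.0563 with rosiglitazone and 0.0919 with troglitazone). The call ended without rosiglitazone replicate 4 (0.068), troglitazone replicate 4 (0.0772) or vehicle replicate 1, 2 or 4 (0.0697, 0.0807 and 0.18). It ended with no set term (0.0738) and without rosiglitazone 2 and pioglitazone 2 together (0.0749), and held with quantile normalisation (0.0244).

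The promoters of the 2 ribosomal genes that rose and held a motif match are shown for comparison with Timm23 and Slc25a20. Both windows are RefSeq GRCm38.p6 on the plus strand, chr6:125191950-125192249 for Mrpl51 and chr2:130563507-130563806 for Mrps26, and capitals mark CCGGAAG, which in Mrps26 lies on the opposite strand.
Mrpl51 promoter: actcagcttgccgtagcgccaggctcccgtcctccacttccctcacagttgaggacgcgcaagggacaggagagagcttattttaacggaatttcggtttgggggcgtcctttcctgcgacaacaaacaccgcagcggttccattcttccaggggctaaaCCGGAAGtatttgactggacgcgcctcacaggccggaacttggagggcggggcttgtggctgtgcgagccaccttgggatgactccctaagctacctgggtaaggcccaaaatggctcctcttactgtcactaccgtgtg
Mrps26 promoter: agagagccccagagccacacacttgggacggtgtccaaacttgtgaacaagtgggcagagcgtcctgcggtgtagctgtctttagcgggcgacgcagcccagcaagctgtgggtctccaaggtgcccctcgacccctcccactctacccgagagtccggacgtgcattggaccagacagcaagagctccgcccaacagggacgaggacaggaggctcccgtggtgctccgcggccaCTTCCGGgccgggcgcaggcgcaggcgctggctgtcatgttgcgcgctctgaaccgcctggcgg

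After Mrps26 and Mrpl12 the next highest ribosomal value over the mean of the drugs was that of Mrpl46, a large subunit protein whose probe sets gave 0.63 ± 0.40 and 0.63 ± 0.30 (adjusted p 0.662 and 0.496). The lowest were Mrps15 at -0.61 ± 0.58, Mrpl11 at -0.60 ± 0.41 and Mrps24 at -0.43 ± 0.20 (adjusted p 0.81, 0.694 and 0.458). Mrpl11 read 125 and 799 after pioglitazone, 624, 795 and 473 after rosiglitazone, 542, 678 and 442 after troglitazone and 698, 915 and 512 with vehicle. Pioglitazone replicate 1 lay far below the other 10 arrays. With pioglitazone Mrpl11 had the lowest log2 fold change of any member, -1.31 ± 0.57 (limma adjusted p 0.45). It was called lower with the beta-actin covariate (-2.19, adjusted p 0.0186), without pioglitazone replicate 2 (-2.64, 0.0131) and without rosiglitazone 2 and pioglitazone 2 together (-2.63, 0.0213), and was at 0.03 without pioglitazone replicate 1 (0.996). Of 18 member genes with several tested probe sets, 13 had the same sign in all of them over the mean of the drugs, and 5 (Mrpl2, Mrpl49, Mrpl50, Mrps18a and Mrps25) had opposite signs.

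Of the 3 genes that maintain and read mitochondrial DNA, 0 were called over the mean of the drugs by limma, and 0 had an unadjusted p under 0.05. Tfb2m, the factor that opens mitochondrial promoters, read 169.8 and 332 after pioglitazone, 265, 258 and 239 after rosiglitazone, 169.5, 177 and 218 after troglitazone and 342, 339 and 337 with vehicle. It was the 1 member whose 8 drug arrays all lay below the 3 vehicle arrays, with a log2 fold change of -0.59 ± 0.41 (adjusted p 0.695). Tfam, which packs mitochondrial DNA, read 33.5 and 79.1 after pioglitazone, 36, 161 and 20.2 after rosiglitazone, 218, 151 and 14.3 after troglitazone and 129.8, 30.5 and 166 with vehicle. It lay at the floor on 5 of 11 arrays, and its log2 fold change was -0.27 ± 0.40 (adjusted p 0.892). Polg, the mitochondrial DNA polymerase, read 325 and 271 after pioglitazone, 281, 94.8 and 54.1 after rosiglitazone, 97.4, 63.5 and 189.6 after troglitazone and 152, 273 and 159 with vehicle. Its arrays spread widely, at -0.24 ± 0.53 (adjusted p 0.926).

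**Figure D3:**
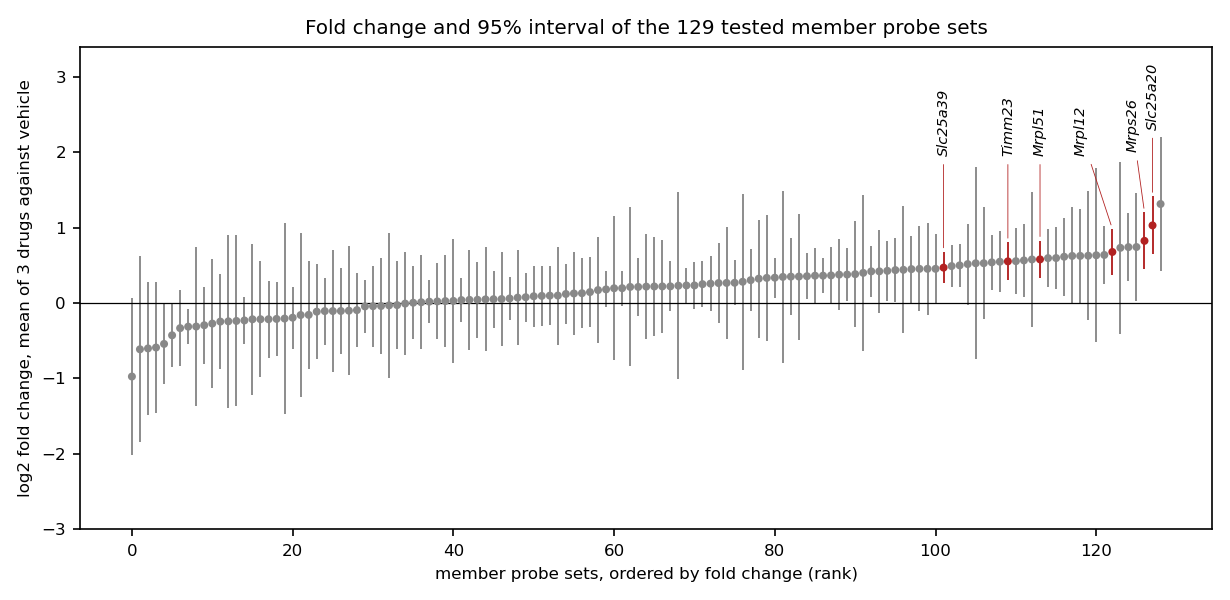
Log2 fold change of the mean of the 3 drugs over vehicle, with its 95% interval, for the 129 tested member probe sets ordered from lowest to highest. The 6 that passed are red and named, and 94 of the 129 points lie above 0.

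Counted by arrays instead of by the model, 9 member probe sets (6.98%) had all 8 drug arrays above all 3 vehicle arrays and 1 (0.775%) had all below, against 1.29% and 1.94% of all tested probe sets. The 9 were Slc25a20, Slc25a51, Slc25a5, Timm23, Hspd1, Hspe1, Mrpl12, Mrpl37 and Mrps26. For single drugs, 25 members (19.4%) lay wholly above vehicle and 7 (5.43%) below with pioglitazone, against 9.07% and 10.3% of all tested probe sets. The counts were 21 (16.3%) and 2 (1.55%) with rosiglitazone, against 4.78% and 6.01%, and 16 (12.4%) and 7 (5.43%) with troglitazone, against 4.77% and 6.07%. Such counts take arrays of both sets together, without a term for set. Pioglitazone had no set 2 array, so set and drug are mixed in its counts here and below.

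**Figure D4:**
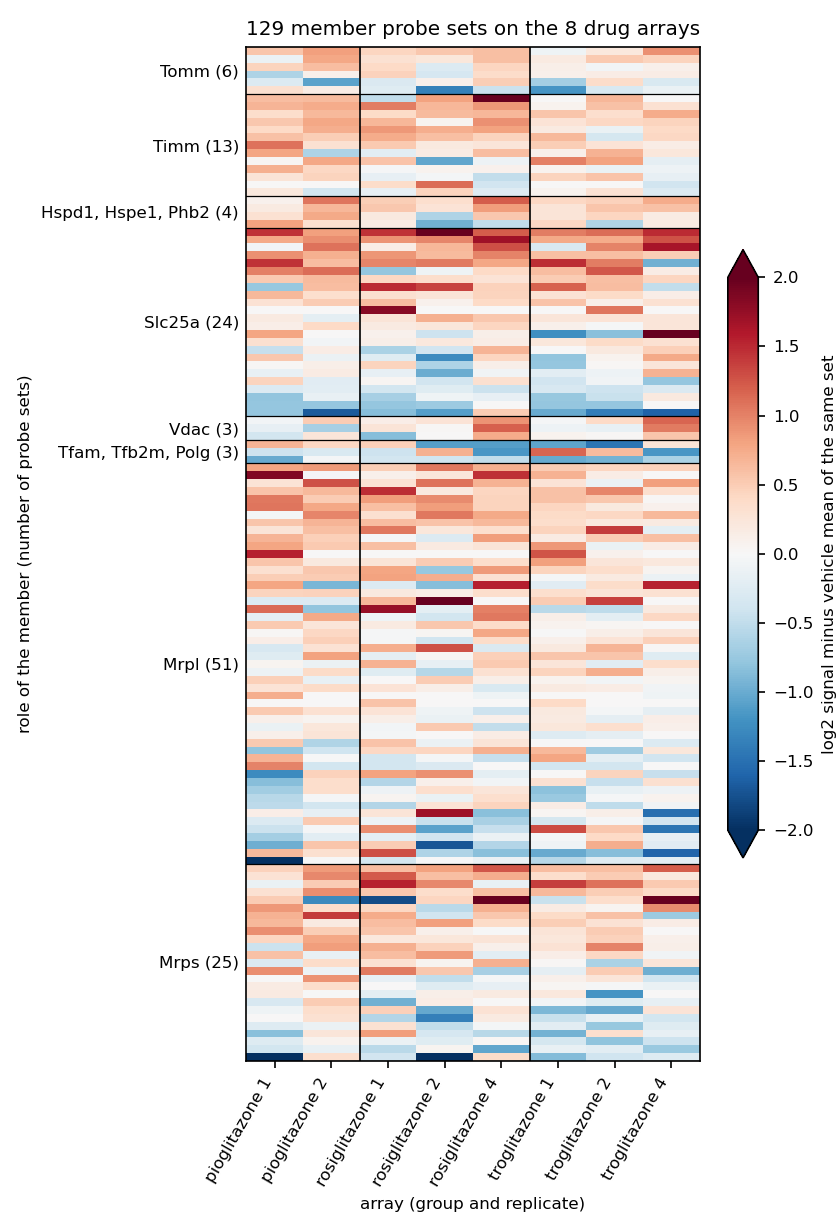
Heat map of log2 signal minus the vehicle mean of the same set for the 129 tested member probe sets (rows, by role) on the 8 drug arrays (columns). Red is above and blue below vehicle, and the colour scale ends at 2 and -2. Most Timm rows are red on most arrays, whereas the ribosomal rows mix both colours.

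Troglitazone and pioglitazone were given at 1 dose, 20 µM, and are the 1 pair of drugs that could be compared. No member differed between them by limma's adjusted p, where 0.0256% of all tested probe sets were higher and 0.00852% lower. At an unadjusted p under 0.05, 1 member (0.775%) was higher and 5 (3.88%) lower with troglitazone, against 3.19% and 3.16% of all tested probe sets. The members' median difference was -0.16, against 0.04 for all tested probe sets, and 6 members had all troglitazone arrays above all pioglitazone arrays and 14 all below (all tested 7.23% and 9.02%).

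The smallest adjusted p between the compounds, 0.312, belonged to Timm13 and Mrpl51. Timm13 differed by -0.61 ± 0.15 on the log2 scale (troglitazone minus pioglitazone, 95% interval -0.94 to -0.28) and Mrpl51 by -0.63 ± 0.16 (-0.97 to -0.29). For the carrier Slc25a20 the difference was -0.06 ± 0.25 (-0.58 to 0.47), for Timm23 -0.01 ± 0.16 (-0.35 to 0.34) and for Mrps26 0.03 ± 0.24 (-0.49 to 0.55), intervals that leave room for differences of up to 0.58 in size. Pioglitazone had only set 1 arrays, 1 of which was the array with the beta-actin ratio of 4.86. With that ratio as a covariate Timm13 differed by -0.73 and Mrpl51 by -0.76 (adjusted p 0.138 and 0.166), and without that array by -0.76 and -0.78 (0.118 and 0.141).

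Respiratory complex genes gave the comparison the question asks for. Of 99 tested probe sets for subunits and factors of complexes I to V and cytochrome c, 12 rose with pioglitazone, 14 with rosiglitazone, 7 with troglitazone and 14 over the mean, and 0 fell in any of the 4. At an unadjusted p under 0.05 over the mean, 41 were higher and 1 lower. Their median over the mean of the drugs was 0.27, against 0.22 for the members. By drug it was 0.39 with pioglitazone, 0.32 with rosiglitazone and 0.18 with troglitazone, beside 0.29, 0.20 and 0.16 for the members. Calls over the mean numbered 14 of 99 against 6 of 129, where 1.28% of all tested probe sets rose. The lists were not matched for brightness. Neither its part in the counts nor the difference between the lists was tested. Cytosolic ribosomal proteins, which share the word ribosome but not the organelle, had 0 of 48 probe sets called over the mean of the drugs in limma's fit (7 higher and 2 lower at an unadjusted p under 0.05) and a median of 0.05, against 0.16 for the 76 mitochondrial ribosomal probe sets. By drug, the cytosolic median was 0.09 with pioglitazone, -0.01 with rosiglitazone and 0.09 with troglitazone, beside 0.26, 0.21 and 0.12 for the mitochondrial probe sets. With pioglitazone 11 of 48 cytosolic and 11 of 76 mitochondrial ribosomal probe sets were higher at an unadjusted p under 0.05. The counts were 1 and 11 with rosiglitazone, and 2 and 5 with troglitazone. Of all tested probe sets, 4.84%, 5.16% and 4.02% were higher by that rule with pioglitazone, rosiglitazone and troglitazone.

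Other genes of the same pathways added a few calls. Of 21 probe sets for 18 of 28 listed genes of protein processing, folding and proteolysis, 2 rose over the mean of the drugs and 0 fell in limma's fit, with 7 higher and 0 lower at an unadjusted p under 0.05. Lonp1, the matrix AAA+ protease, rose by 0.97 ± 0.12 (adjusted p 0.000421) on the log2 scale, and Hspa9, the matrix Hsp70 that pulls precursors through the Timm23 channel, by 0.51 ± 0.10 (adjusted p 0.0141). Of 7 probe sets for 6 of 17 listed translation factors and synthetases, 1 rose, Tufm, the mitochondrial elongation factor Tu, at 0.69 ± 0.16 (adjusted p 0.0349). Of 12 probe sets for 9 of 14 listed genes of mitochondrial DNA and RNA, 0 were called over the mean by limma and 2 were higher at an unadjusted p under 0.05. Of 13 probe sets for 9 of 12 listed regulators, 1 rose, Esrra, the estrogen-related receptor alpha that acts on genes of mitochondrial metabolism, at 0.86 ± 0.11 (adjusted p 0.000445). Lonp1, Tufm and Esrra each had a second probe set that did not pass, at 0.30 ± 0.26 (adjusted p 0.788), 0.21 ± 0.31 (adjusted p 0.892) and 0.31 ± 0.22 (adjusted p 0.706).

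Promoters were searched for the 3 motifs over 300 bases on both strands, in the 95 of 107 member genes that the RefSeq table held. TGCGCA was found in 22.1% of these genes, CCGGAAG in 38.9% and the loose DR1 in 9.47%. Among the genes of all tested probe sets in the table the shares were 14.4%, 17.4% and 3.86%, and among all genes with a RefSeq promoter 8.79%, 9.93% and 4.4%. TGCGCA or CCGGAAG was present in 52.6% of member genes and in 47.5% of respiratory complex genes. The share was 28.6% among the genes of all tested probe sets and 17.1% among all genes with a RefSeq promoter. Respiratory complex genes matched DR1 in 1.69%. Of the 6 genes that rose, 4 held TGCGCA or CCGGAAG, a count too small to set against the 52.6% of member genes. Mrpl12 and Slc25a39 held none of the 3 motifs in the window. A match is a description of sequence and does not show that a factor binds.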

How the data were processed

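Mouse 3T3-L1 cells were profiled on 11 one-colour arrays of 12488 probe sets. The deposited values are linear intensity signals, and the authors had scaled them to a common trimmed mean, as computed from the values (2% trimmed at each end). No header or label names the array software, the way probe pairs were summarised or a genome build. Signals under 73.7, the 25th percentile of all values, were raised to it, log2 values were taken, and 66 control probe sets were left out. Of 12422 probe sets, 11739 exceeded this floor on 2 or more arrays and were tested. On arrays the number of replicates limits the precision.

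All members were matched to RefSeq GRCm38.p6 by gene identifier. Of 10833 probe sets with 1 gene in the platform annotation, 10817 matched.

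limma 3.58.1 (R 4.3.3) fitted group and set to all 11 arrays, with an intensity trend and 6 residual degrees of freedom. Tests were two-sided and adjusted by Benjamini-Hochberg over all tested probe sets within each of 5 contrasts. The limma scripts were tested on simulated data. Named genes were every called member, fixed representatives of each role, and the 3 highest and 3 lowest ribosomal values. Where 2 probe sets measured a gene both were counted. Alternatives covered scaling, floor, filter, set term, trend, replicate block, a beta-actin covariate, only the groups compared, and left-out arrays. The members and gene lists were chosen with earlier results of these data known.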

Additional observations from a re-analysis of the deposited data

How the results depend on the processing

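The members' median stayed above 0 for all 3 drugs and their mean under every alternative run, at 0.13 to 0.32 for the mean of the drugs, and below 0 between troglitazone and pioglitazone, at -0.23 to -0.07. Counts of called members were less stable. Over the mean of the drugs 6 rose, with 1 to 8 when 1 array was left out, 7 with median centring, no filter or the beta-actin covariate, 9 with the floor at the 50th percentile (1 of them lower, Slc25a10), 2 after quantile normalisation, 1 without the set term, 0 in set 1 alone, 0 without the intensity trend, and 3 without rosiglitazone 2 and pioglitazone 2 together. For pioglitazone (1 as reported) the counts were 0 to 2 for left-out arrays. They were 0 with quantile normalisation, no set term, set 1 alone, no intensity trend or only the groups compared, 2 with no filter, with the replicate block, with the beta-actin covariate (1 of them Mrpl11, lower) or without rosiglitazone 2 and pioglitazone 2 (1 again Mrpl11, lower), 3 with the floor at the 50th percentile and 4 with median centring. For rosiglitazone (3) they were 0 to 3 for left-out arrays, 1 with median centring or no set term, 5 with the beta-actin covariate, and 0 in set 1 alone, without the trend, with only the groups compared or without rosiglitazone 2 and pioglitazone 2. For troglitazone (2) they were 0 to 1 for left-out arrays. They were 1 with quantile normalisation, the floor at the 10th or 50th percentile, an added constant, no filter or without rosiglitazone 2 and pioglitazone 2, and 0 with no set term, set 1 alone, the replicate block, no trend or only the groups compared. Between troglitazone and pioglitazone the count was 0 in all. Same-numbered arrays did not deviate together (correlations of -0.044 to 0.01), so the replicate block pairs by number only, and with it 6 members were called over the mean, 2 for pioglitazone, 3 for rosiglitazone and 0 for troglitazone. Sign changes were sought only among the called members and fixed representatives, and for uncalled values only where the reported value exceeded its SE. No value that changed sign was called as reported. With pioglitazone the brighter Tomm70a probe set changed (-0.0701 without rosiglitazone 2 and pioglitazone 2, and -0.0611 to 0.814 for left-out arrays, the lowest without pioglitazone 2). Between troglitazone and pioglitazone Tomm20 changed (-0.0255 with the beta-actin covariate), as did 1 Slc25a1 probe set (-0.003 with that covariate, -0.0184 without both arrays, and -0.0135 to 0.361 for left-out arrays, the lowest without pioglitazone 2). Outside that search, Mrpl11 with pioglitazone went from -1.31 to 0.03 without pioglitazone replicate 1. The cause of these changes was not tested. Set 1 alone, the left-out fits and those with only the groups compared also held fewer arrays.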
